A study of Mus musculus with 4 samples.

Results

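Cytosolic ribosomal protein genes were examined as a class of short, abundant mRNAs in a map of N6-methyladenosine (m6A), the most common internal modification of mRNA, in mouse spinal cord. Genes were taken by name (Rpl, Rplp or Rps, a number and at most the ending a, l or al), a rule that used no measured value. This gave 42 gene names among the 13558 named in the 3 deposited tables. RefSeq lists 82 symbols that match the rule, 80 of them protein-coding, so that genes without a peak could be counted as well. Of the 42 names, 41 were protein-coding genes and the last, Rps4l, is a transcribed pseudogene in RefSeq.

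C57BL/6J mice, 6 to 8 weeks of age and with no transgene or deletion named, gave the tissue, spinal cord, which by the study's text was taken about a week after surgery. One group, CCI, was named as having a chronic constriction injury, a model in which loose ligatures are usually tied around the sciatic nerve. The other, sham, had sham surgery. The study's methods describe only a spinal nerve ligation and its sham, so how the CCI and its sham operation were done was not given. Poly(A) RNA was fragmented and immunoprecipitated with an m6A antibody (IP), and an input library was made from the same kind of RNA without it. Each group had 1 IP and 1 input library, 4 libraries in all, and the number of mice behind each was not given in the sources used here. The values are fold enrichment, the ratio of IP over input reads within a peak as the peak caller reported it, so they describe how much of a stretch of mRNA was pulled down relative to its abundance, not how abundant the mRNA was.

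With 1 library pair per group there was no replicate check of any difference between sham and CCI, and no test was made. Intervals given with shares are 95% Wilson intervals and cover counting error only. Read depth was unknown, because the tables hold no read counts. In bulk tissue, fewer cells of a type and less RNA per cell cannot be told apart. The sham list held 34406 peaks in 12907 gene names and the CCI list 33556 peaks in 12408. Defining markers of neurons (5 of 5), oligodendrocytes, astrocytes and microglia (3 of 3 each) and the 3 spinal Hox genes examined had a peak in both lists, as did 2 of 3 Schwann cell markers, while none of 3 skeletal muscle markers had one.

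A cytosolic ribosome is built from a large 60S and a small 40S subunit, whose proteins are encoded by single genes scattered over the chromosomes and are made in near equal numbers. Their mRNAs are short, with brief untranslated regions (UTRs), and many begin with a C followed by a run of pyrimidines, the 5′ terminal oligopyrimidine (TOP) tract, through which mTOR and the RNA-binding protein LARP1 control their translation. m6A is typically deposited in long exons and near stop codons and is sparse close to splice junctions.

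The TOP tract shows at the RefSeq starts of several members, printed here beside that of Rpl13a, whose annotated start does not hold it. Rpl13a is shown because it had the only 5′ UTR peak that covered a member's transcript start. Each window runs from 5 bases before the annotated start to base 20 of the transcript, 5′ to 3′ on the transcribed strand (RefSeq, GRCm38.p6). Capitals mark the pyrimidine run that begins at the first transcribed base, or for Rpl13a the longest run in the window, which begins at base 3 of the transcript. The first 5 genes had a peak in both lists and the last 3 in neither.
Rpl13a: gacaagaCCTCCTCCTTTCCCaggc
Rpl28: tgtctCTCTTTCCgtctccggccgc
Rps6: cgggcCTCTTTTTCgtgacgcctcc
Rpl15: gccttCTTCCTTTCCTCTggcggca
Rpl14: tctctCTTCTCgctgagcgccgcca
Rpl38: tcgttCTTTCCCCgttctcttcggt
Rps10: cgcccCTTCCTTTCCagcctccgcc
Rps18: ccgctCTCTCTTCCacaggaggcct
The windows lie at chr7:45128726-45128750 (minus strand, Rpl13a), chr7:4792960-4792984 (plus, Rpl28), chr4:86857348-86857372 (minus, Rps6), chr14:18270967-18270991 (minus, Rpl15), chr9:120571512-120571536 (plus, Rpl14), chr11:114668575-114668599 (plus, Rpl38), chr17:27635225-27635249 (minus, Rps10) and chr17:33955646-33955670 (minus, Rps18). A C followed by 4 bases that are each C or T, searched on the transcribed strand at the annotated start only, was present at 14 of the 72 starts listed for 60 of the members (19.4%, interval 11.95 to 30.03%). The same letters stood at 469 of 21262 starts of all protein-coding genes (2.21%) and at 0 of 72 starts of mitochondrial ribosomal protein genes, which allows a share of up to 5.07% by the upper limit of the interval. Annotated starts can differ by some bases between sources, and for Rpl13a the transcript start in the deposited tables lay 16 bp upstream of the RefSeq start.

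About as many ribosomal protein genes carried a peak as protein-coding genes in general. In sham, 40 of the 80 protein-coding members had at least 1 peak (50.0%, interval 39.3 to 60.7%), against 51.5% of all 21896 protein-coding genes. In CCI, 34 of 80 had one (42.5%, 32.3 to 53.4%), against 49.9%. Both lists named 33 of 80 (41.2%), where 48.0% of all protein-coding genes were in both, and neither list named 39 of 80 (48.8%), where 46.6% of all were in neither. The member shares thus lay near the share over all genes, and the interval of each included it. That background counts every protein-coding symbol, expressed in spinal cord or not, because no expression values were used. The shares therefore do not compare the members with other expressed mRNAs.

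Shares were similar in both subunits, with intervals that overlapped widely. Among the 51 genes of the 60S subunit, 25 had a peak in sham (35.9 to 62.3%) and 21 in CCI (28.8 to 54.8%), and among the 29 genes of the 40S subunit, 15 had one in sham (34.4 to 68.6%) and 13 in CCI (28.4 to 62.5%). Of the P stalk, the flexible 60S arm that recruits elongation factors, only Rplp0 had a peak, in sham, and Rplp1 and Rplp2 had none in either list.

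The share was higher in some classes of related function. Mitochondrial ribosomal proteins, which build the separate ribosome of mitochondria, had a peak in 58 of 75 genes in sham (77.3%, 66.7 to 85.3%) and 57 of 75 in CCI (76.0%, 65.2 to 84.2%), and neither interval overlapped that of the cytosolic class. Genes with names that begin with Eif or Eef and a number had one in 51 of 71 in sham (71.8%, 60.5 to 81.0%). In CCI 48 of 71 had one (67.6%, 56.1 to 77.3%). The sham interval just overlapped that of the cytosolic class, while the CCI interval did not. These genes are called translation factors here, although the names also take in regulators such as Eif4ebp1. Nuclear genes of oxidative phosphorylation, another class of short abundant mRNAs, had one in 51 and 45 of 84 (60.7% and 53.6%), with intervals that overlapped those of the cytosolic ribosomal proteins. Of 39 genes for ribosome assembly and the control of ribosomal protein translation, 36 had a peak in sham (92.3%) and 37 in CCI (94.9%). Among all protein-coding genes, expressed or not, 51.5% and 49.9% had one. This list was chosen with earlier results of these data known, so its share is not read as a trait of such genes. That list covers, among others, Larp1, which binds TOP mRNAs, Mtor, the nucleolar proteins Ncl and Npm1, and the RNA polymerase I subunits Polr1a and Polr1b. Ltv1 and Nmd3 were listed in CCI only, Nop10 in sham only and Gnl3 in neither. Eif4ebp1, Eif4ebp2 and Eif6 of this list are also counted among the genes called translation factors.

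**Figure D1:**
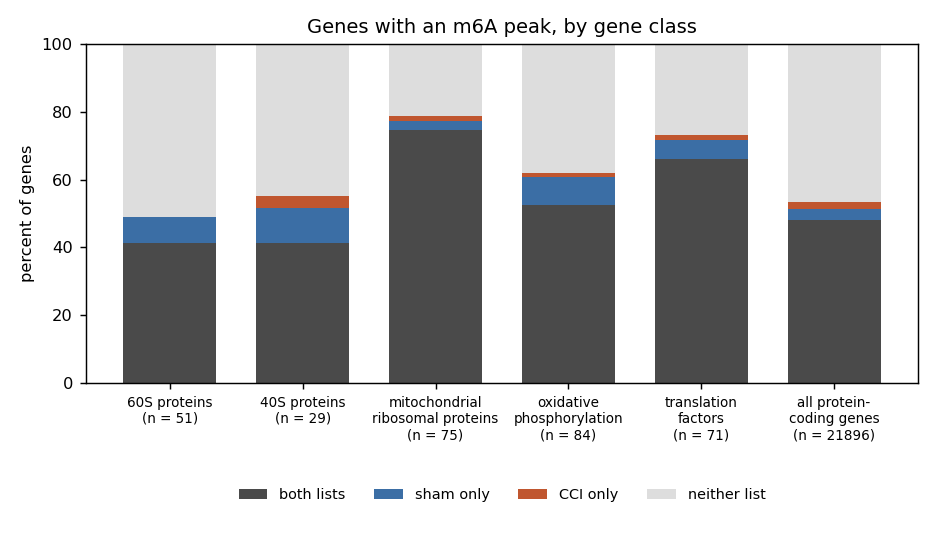
Stacked bars give the percent of genes (vertical axis) in each class with a peak in both lists, in the sham list only, in the CCI list only or in neither, with the number of genes under each bar. The 60S and 40S bars reach 49.0% and 55.2% for a peak in either list, close to the 53.4% of all protein-coding genes, and the mitochondrial ribosomal proteins reach 78.7%.

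Gene size was set beside these shares, since the members are short genes. Their genomic span had a median of 3151.5 bp (592 to 11774 bp), against 17149 bp for all protein-coding genes, and no member spanned more than 20000 bp. Within the 2001 to 5000 bp class, 26 of 54 members had a peak in sham (48.1%, 35.4 to 61.1%) beside 993 of 2451 protein-coding genes (40.5%). In CCI the same class held 22 of 54 members (40.7%) beside 953 of 2451 genes (38.9%). Below that size, up to 2000 bp, 7 of 13 members had a peak in sham and 6 of 13 in CCI, where only 205 and 193 of 2596 protein-coding genes did (7.90% and 7.43%). Expression could not be matched between the classes, since no expression values were used here. Members with a peak did not stand out by size, with a median span of 2969 bp against 3352 bp for those without.

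Peaks were few per gene and lay at the 3′ end. Of 49 member peaks in sham, 40 were annotated to the 3′ UTR (81.6%, 68.6 to 90.0%), 7 to an exon and 2 to the 5′ UTR. Of 40 in CCI, 33 were in the 3′ UTR (82.5%, 68.0 to 91.3%), 5 in an exon and 2 in the 5′ UTR. Across all peaks the 3′ UTR took 48.9% in sham and 49.8% in CCI, below the lower limit for the members. The mitochondrial ribosomal proteins had a share like that of the cytosolic ones (80.2% and 81.8%), while translation factors stood at 48.7% and 47.3%.

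A single peak was the rule: 35 of 41 named members in sham (85.4%) and 31 of 34 in CCI (91.2%) had exactly 1, where 35.3% and 35.2% of all genes with a peak did. The share was 70.6% and 73.3% for oxidative phosphorylation genes, with intervals that overlapped those of the members, and 55.2% and 63.2% for mitochondrial ribosomal proteins. The mean was 1.20 peaks per gene in sham and 1.18 in CCI, against 2.67 and 2.70 over all genes. Member peaks covered a median of 180.0 exonic bases in sham and 179.5 in CCI, against 239 and 211 for all peaks.

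Many member peaks ran to the very end of the transcript. In sham, the downstream edge of 18 of 49 peaks fell on the last base of the assigned transcript (36.7%, 24.7 to 50.7%), and in CCI 14 of 40 did (35.0%, 22.1 to 50.5%), where 5.73% and 5.18% of all peaks ended there. Similar classes lay between, with intervals that overlapped those of the members, at 25.0% and 21.6% for mitochondrial ribosomal proteins and 21.7% and 21.9% for oxidative phosphorylation genes. Within 100 bp of that base ended 27 of 49 (55.1%) and 19 of 40 (47.5%), beside 10.7% and 10.2% of all peaks. Restricting the view to 3′ UTR peaks left the pattern in place, with 18 of 40 member peaks ending at the last base in sham (45.0%, 30.7 to 60.2%) against 10.9% of all 3′ UTR peaks, and 14 of 33 in CCI (42.4%, 27.2 to 59.2%) against 9.70%. Peaks that reached the last base in both lists included those of Rpl8, Rpl10a, Rpl13, Rpl19, Rpl29, Rpl36, Rpl7, Rps6, Rps9, Rps15 and Rps27a. UTR lengths were not used here, so the distance was not set against them.

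**Figure D2:**
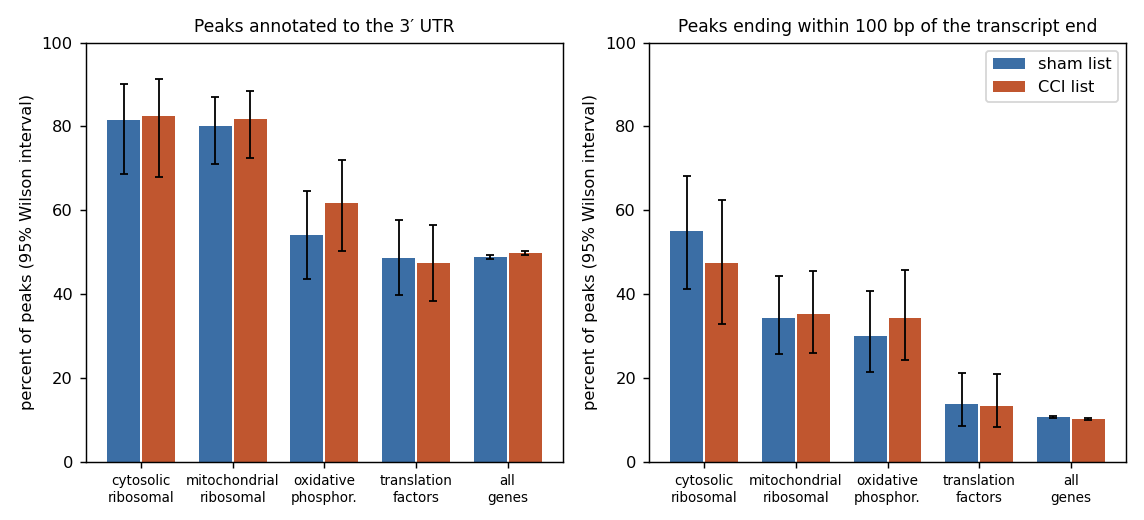
Bars give the percent of peaks (vertical axes) annotated to the 3′ UTR (left) and with a downstream edge within 100 bp of the transcript end (right), for 5 gene classes in the sham and CCI lists, with 95% Wilson intervals. Both ribosomal protein classes stand above 80% for the 3′ UTR, and the cytosolic class has the highest share near the transcript end, 55.1% in sham and 47.5% in CCI.

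The regions are those of the deposited annotation, which assigns each peak to 1 transcript and can place like peaks differently. The Rpl15 peak was called exonic in sham and 3′ UTR in CCI after its edge moved from position 18269014 to 18268985 on chromosome 14. For Rps24 the peak ending at chr14:24495582 changed label in the same way. Rpl11 was assigned to a transcript spanning 24421 bp, whose end lay 21684 bp beyond the peak. The Rps19 peak, labelled 3′ UTR, also reached over the start of its short transcript of 1065 bp.

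Enrichment of member peaks was somewhat above that of an average peak. The median fold enrichment was 8.60 in sham (middle 50% 3.58 to 17.5) against 5.70 for all peaks (3.04 to 12.4), and 9.27 in CCI (4.07 to 15.6) against 5.72 (3.06 to 11.8). Medians of similar classes were lower than those of the members. They were 5.06 in sham and 7.315 in CCI for mitochondrial ribosomal proteins. For oxidative phosphorylation genes they were 4.42 and 3.82, and for translation factors 4.65 and 5.335. A fold enrichment of at least 10 was reached by 23 of 49 member peaks in sham (46.9%, 33.7 to 60.6%) and 19 of 40 in CCI (47.5%, 32.9 to 62.5%), beside 30.9% and 30.5% of all peaks. For similar classes the shares were 34.4% and 35.2% (mitochondrial ribosomal proteins), 25.3% and 17.8% (oxidative phosphorylation) and 28.2% and 30.4% (translation factors). Their intervals overlapped those of the members, except for oxidative phosphorylation genes in CCI (10.7 to 28.1%). By the strongest peak of each gene, the medians were closer, at 12.2 in sham against 11.8 for all genes and 10.2 in CCI against 11.5, so that the members were slightly higher in sham and lower in CCI.

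**Figure D3:**
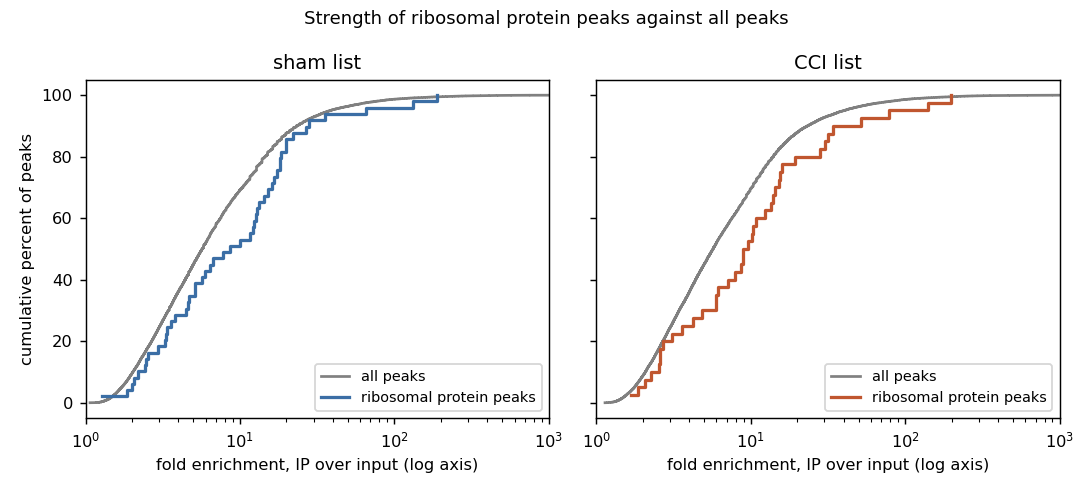
Cumulative percent of peaks (vertical axis) at or below each fold enrichment (horizontal log axis, IP over input) is drawn for member peaks and all peaks in the sham (left) and CCI (right) lists. The member curves lie to the right of the grey curves over most of the range, with medians of 8.60 and 9.27 against 5.70 and 5.72.

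Among 60S proteins, the same 3 genes had the highest values in both lists. Rpl4, which lines part of the exit tunnel for the new peptide, had a 3′ UTR peak at chr9:64178277-64178576 whose fold enrichment was 189 (sham) and 197 (CCI), at percentile 99.5 of all peaks of each list. Rpl28, a eukaryote-specific protein, followed with 132 in sham and 140 in CCI at chr7:4794089-4794651. Rpl29, likewise found in eukaryotes but not in bacteria, had 65.8 and 79.2 at chr9:106431302-106431568. The order of these 3 genes was the same in both lists, and each differed between the lists by a log2 ratio of at most 0.27.

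Behind them came Rpl8, a core protein near the peptidyl transferase centre, with 35.3 in sham and 30.4 in CCI. Rpl36 had 26.9 in sham and 14.0 in CCI, and Rpl19 19.8 and 33.9. Rpl14 had 17.5 and 31.8, and Rpl36a 18.1 and 52.1. These neighbours changed places between the lists, so that their order below the first 3 genes was not shared. At the other end, Rpl22 had 2.47 and 1.87, Rpl15 2.18 and 2.59, and Rpl37 3.37 and 4.22, all below the median peak.

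Rpl13a, which also acts in an interferon-induced translation-silencing complex and hosts small nucleolar RNAs in its introns, differed in pattern from the rest. By fold enrichment, its strongest peak lay at the 5′ end, at chr7:45128135-45128761 in sham and chr7:45128553-45128761 in CCI, over the transcript start and the pyrimidine run printed above. Its fold enrichment was 27.9 (sham) and 13.6 (CCI). A pair of overlapping peaks near the 3′ end had 11.7 and 3.33 in sham and 7.14 and 2.25 in CCI, sharing 173 bases in sham and 143 in CCI. By the peak caller's log10 p, the 3′ peaks were the better supported. They had −293 and −295 in sham and −101 each in CCI, against −42.7 and −34 for the 5′ peak.

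The other 5′ UTR peak belonged to Rpl36al, a paralog of Rpl36a, with 3.81 in sham and 8.86 in CCI at chr12:69183054-69183260. It shared 97 bases in each list with a peak assigned to the 5′ UTR of the neighbouring gene Mgat2 (3.74 and 4.02), so the gene of origin is uncertain. Its upstream edge lay 726 bp from the transcript start in sham and 697 bp in CCI. In sham the gene had a second peak, of 5.98, at its 3′ end.

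Among 40S proteins the strongest peaks were weaker than those of the leading 60S genes. Rps24, a protein mutated in some patients with Diamond-Blackfan anaemia, had 3 peaks in sham, as many as Rpl13a, and 4 in CCI, the most of any member there. Its strongest peak in sham, 18.1 at chr14:24493338-24493667, had 12.3 in CCI, while the peak ending at position 24495582 had 6.39 in sham and 15.3 in CCI. The latter thus became the strongest Rps24 peak in CCI, and an extra peak of 3.61 at chr14:24494056-24494206 was listed in CCI only.

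Rps9 had 16.2 in sham and 19.5 in CCI, and Rps19, another Diamond-Blackfan gene, 15.1 and 15.5. Rps6, the target of S6 kinase downstream of mTOR, had 13.3 and 5.94 at the end of its assigned transcript. The downstream edge lay at position 86854660 on chromosome 4, while the RefSeq gene runs further, to 86854099. Rps15 had 12.3 and 28.2. Low values were found for Rps26 (1.87 and 2.06) and Rps3, a protein at the mRNA entry site (2.53 and 2.57), both of which had nearly the same value in both lists.

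**Figure D4:**
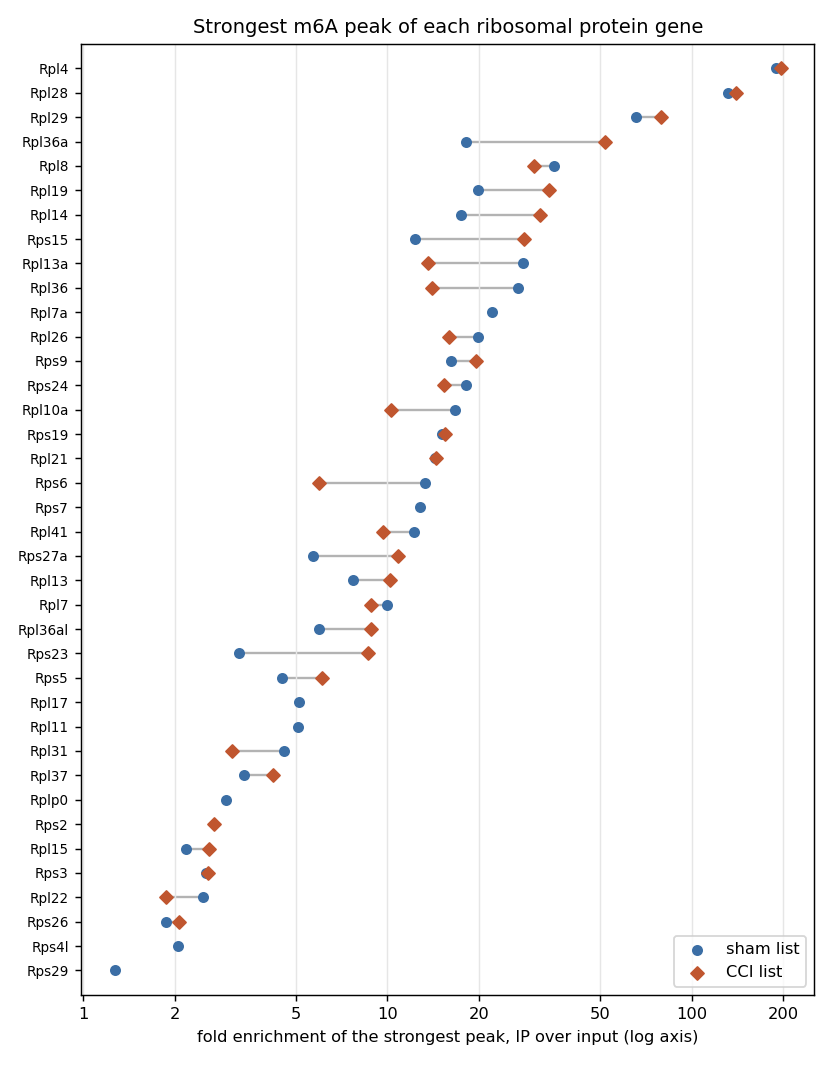
Each row is 1 of 38 of the 42 gene names, with the fold enrichment of its strongest peak (horizontal log axis, IP over input) in the sham list (circle) and the CCI list (diamond); a missing symbol means no listed peak, and for Rpl26, Rpl36al and Rps24 the symbols are peaks at different places. Rpl4, Rpl28 and Rpl29 lead in both lists, and the 8 genes with a single symbol lie at 22.1 or below.

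To compare the groups, each member peak was paired with the CCI peak it overlapped best. There were 37 such pairs, of 27380 over all genes. Their median log2 ratio of fold enrichment, CCI over sham, was 0.04 (middle 50% −0.54 to 0.40), next to 0.03 (−0.37 to 0.43) for all pairs. It was below 0 in 16 of 37. The class as a whole therefore sat where all pairs sat.

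A log2 ratio of at least 1 was reached by 5 of the 37 pairs (13.5%, 5.91 to 28.0%), where 8.59% of all pairs reached it. These were Rpl36a (18.1 and 52.1, log2 ratio 1.53), Rps23, a protein of the decoding centre (3.25 and 8.65, 1.41), the Rps24 peak ending at position 24495582 (1.26), Rpl36al (1.22) and Rps15 (12.3 and 28.2, 1.20). A ratio of −1 or less was reached by 2 (5.41%, 1.50 to 17.7%), where 7.25% of all pairs reached it. They were Rps6 (−1.16) and the 5′ peak of Rpl13a (−1.04), followed by Rpl36 at −0.94, the stronger 3′ peak of Rpl13a at −0.71 and Rpl10a (16.7 and 10.3) at −0.70. Both shares had intervals that included the background.

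All 3 paired peaks of Rpl13a had lower values in CCI, but those near the 3′ end overlap and are not separate stretches. The 3 pairs of Rps24 did not go one way, with −0.56 and −0.47 for the upstream peaks and 1.26 for the one farthest downstream. For the parent and paralog Rpl36a and Rpl36al, both log2 ratios were above 1, but the peaks lay in the 3′ UTR and the 5′ UTR respectively. The Rpl36al peak is of uncertain origin, and the Mgat2 peak that shares its bases had 3.74 in sham and 4.02 in CCI.

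The caller's p-values moved in another way than the fold enrichments. The deposited log10 p was closer to 0 in CCI in 32 of 37 member pairs (86.5%, 72.0 to 94.1%), among them pairs with a higher fold enrichment such as Rpl19 (−59.9 in sham, −24.3 in CCI) and Rps15 (−282 and −193). It was also closer to 0 in CCI in 69.9% of all pairs. Among similar classes, 79.4% (67.8 to 87.5%) of oxidative phosphorylation pairs did so and 76.0% (65.2 to 84.2%) of mitochondrial ribosomal protein pairs. Both intervals overlapped that of the members. Translation factors stood at 63.6%. Read depth enters such p-values and was not known for either group. The paired member peaks were shorter in CCI in 19 cases, longer in 4 and of equal length in 14.

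**Figure D5:**
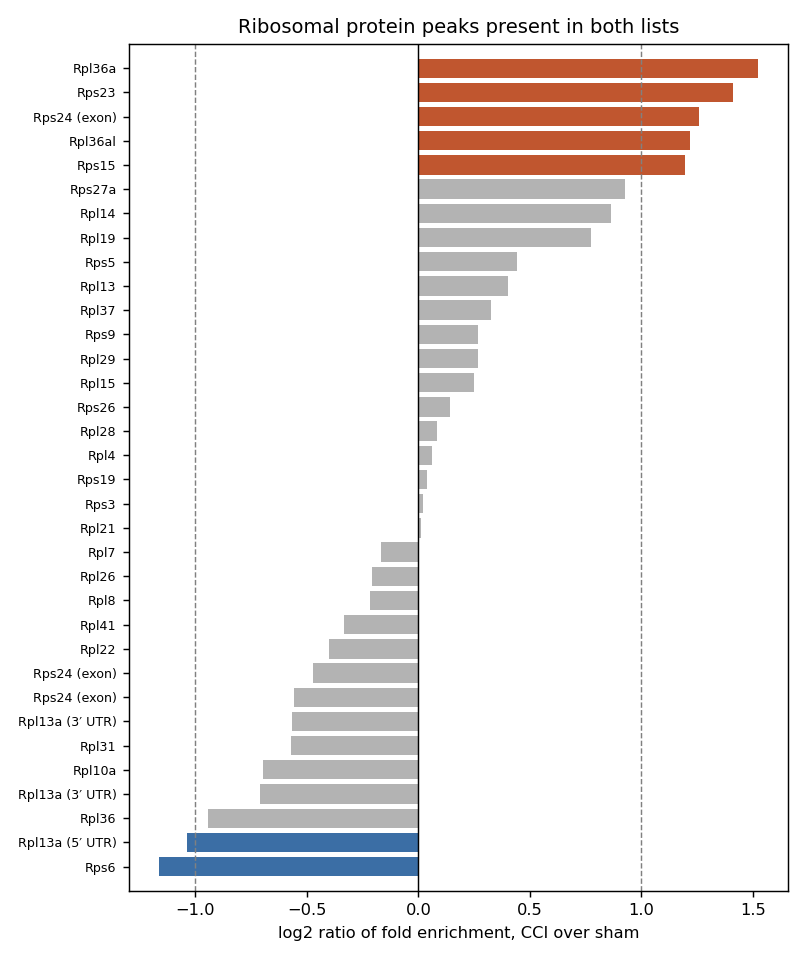
Bars give the log2 ratio of fold enrichment, CCI over sham (horizontal axis), for 34 of the 37 member peaks present in both lists, with the region in sham added where a gene has more than 1 pair; dashed lines mark −1 and 1. Bars past the lines are coloured, 5 on the right from Rps15 to Rpl36a and 2 on the left, Rpl13a (5′ UTR) and Rps6.

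Some members were named in 1 list only. Of the 42 names, 8 were in sham only (19.0%), where 8.46% of all 13554 gene names with a peak were, and 1 in CCI only (2.38%), where 4.77% were. Those in sham only included Rpl7a (22.1), Rps7 (12.8), Rpl17 (5.11), Rpl11 (5.09), Rplp0 (2.94), the pseudogene Rps4l (2.05) and Rps29 (1.27), and the one in CCI only was Rps2 (2.70). Rpl11 is known for binding Mdm2 when ribosome assembly fails, and Rps29 had the weakest peak of all members.

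These peaks had weak p-values in the list that held them. In sham their deposited log10 p ran from −15.1 (Rpl11) to −2.23 (Rps29) with a median of −5.24, against a median of −59.9 for the strongest-supported sham peak of the 33 members in both lists. That contrast was not made over all genes here, so it is not read as a trait of the members. For Rpl7a a fold enrichment of 22.1 went with a log10 p of −5.32, and for Rps7 12.8 with −2.85 over 60 bases. Among genes with exactly 1 sham peak, 27 of 35 members (77.1%, 61.0 to 87.9%) were also in the CCI list, beside 78.7% of all such genes. Among genes with exactly 1 CCI peak, 30 of 31 members (96.8%, 83.8 to 99.4%) were also in the sham list, beside 86.6% of all such genes. By peaks, 37 of 49 sham member peaks overlapped a CCI peak (75.5%, 61.9 to 85.4%; all peaks 83.9%) and 38 of 40 CCI member peaks a sham peak (95.0%, 83.5 to 98.6%; all peaks 87.7%).

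The table of differential peaks that the authors made listed 11 peaks in 10 members, among them Rpl13a with 2 and Rpl26, Rpl29, Rpl36, Rpl41, Rps6, Rps15, Rps19 and Rps24 with 1 each. That is 23.8% of the 42 names, where 25.3% of all gene names with a peak were listed. All 11 were annotated to the 3′ UTR, where 81.6% of member peaks in the sham list and 82.5% in the CCI list lay as well. Of the 11, 10 overlapped a peak of both lists. Neither share was computed over all differential peaks, so neither is read as a trait of the members. In the separate lists, Rpl26 had 18.5 in sham and 16.0 in CCI for its paired peak, and Rpl41, which encodes one of the shortest known proteins, 12.2 and 9.68.

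No peak was listed in either group for 39 protein-coding members. In the 60S subunit these were Rpl3, Rpl3l, Rpl5, Rpl6, Rpl9, Rpl10, Rpl10l, Rpl12, Rpl18, Rpl23, Rpl23a, Rpl24, Rpl27, Rpl27a, Rpl30, Rpl32, Rpl32l, Rpl34, Rpl35, Rpl35a, Rpl37a, Rpl38, Rpl39, Rpl39l, Rplp1 and Rplp2. In the 40S subunit they were Rps10, Rps12, Rps13, Rps14, Rps15a, Rps16, Rps18, Rps20, Rps21, Rps25, Rps27, Rps27l and Rps28. A missing peak says that none passed the caller's threshold at an unknown depth, not that the mRNA lacks m6A. Of the 14 genes with the TOP letters at an annotated RefSeq start, 4 had a peak (Rpl14, Rpl15, Rpl28 and Rps6), all in both lists, beside 24 of the 46 other members with a listed start. Those other members are not known to lack a TOP tract. The search took the first annotated base only, and a run such as that of Rpl13a, from base 3, did not count. A link between the tract and a peak was not tested.

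Paralogs were set beside their parents. Rpl3l, Rpl10l, Rpl39l and Rps27l had no peak, nor had Rpl3, Rpl10, Rpl39 and Rps27, while Rpl36al and Rpl36a both had one in each list. Rps4l had a peak of 60 bases in sham, and its X-linked relative Rps4x none. Rpl22l1 had no peak, while Rpl22 had one in each list.

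Ribosomal protein genes outside the name rule were counted as well. Of 9 such genes, 4 had a peak in both lists, among them Rpsa, Fau and Rpl7l1, and 5 had none (Rps4x, Rps3a1, Rps27rt, Rack1 and Rpl22l1). Fau, which encodes a ribosomal protein fused to a ubiquitin-like protein, had its peak in the 5′ UTR, at 3.25 in sham and 4.00 in CCI. Rps27a, a member fused to ubiquitin, had its peak at the last base of the transcript (5.68 and 10.8). Rpsa, a 40S protein also known as a laminin receptor, had 20.5 and 43.9 in the 3′ UTR.

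Reads from near-identical copies limit these values, because processed pseudogenes of ribosomal protein genes are many and the treatment of reads with several matches was not given in the sources used here. Peaks were assigned to the pseudogenes Rps19-ps3 (11.6 in sham, 40.7 in CCI), Rpl29-ps2 (12.8, sham only) and Rps6-ps1 (8.13, sham only), whose parents all had peaks. Within the spans of other members, peaks carried the names of overlapping genes, such as Gm24888 in Rpl27a (2.44 and 3.37) and Kank3 over Rps28 (10.4, CCI only). Whether such peaks stem from the ribosomal protein mRNA could not be told apart from these tables.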

How the data were processed

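m6A peaks of mouse spinal cord were analysed from 3 deposited tables: a peak list each for sham and CCI (1 IP against 1 input library) and a table of differential peaks. The submitters' processing notes name fastp, HISAT2, HOMER, ChIPseeker and GRCm38, while the study's methods name Cutadapt, bowtie and MACS2; which run made the tables was not settled. The authors gave each peak a fold enrichment (a ratio of IP over input, already normalised), a p-value and scores that are log10 values of p and false discovery rate. The differential table also holds 3 columns of the authors' own comparison (log2 fold change, log10 p and log10 false discovery rate), which were not used; only its names, positions and pooled fold enrichment were. The deposited values hold no read counts, so depth and its precision were unknown.

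Members and gene lists were chosen with earlier results of these data known. Named genes were the 8 strongest members of each list, those in 1 list only, the 5 largest paired log2 ratios each way, members in the differential table, the 5 with most peaks, paralogs with their parents, and members without a peak. Other members named for their position, weak peaks, overlaps or start letters were chosen after their values were seen. All deposited transcripts of members (43 in sham, 36 in CCI) overlapped the RefSeq GRCm38.p6 gene of the same symbol. Peaks were paired as mutual best overlaps of at least 1 exonic base, tested on simulated peaks, and a log2 ratio of at least 1 either way was counted. Distances to the transcript end are genomic. Shares carry Wilson intervals. Python 3 with pandas, numpy, scipy and matplotlib was used. Alternatives varied the false discovery rate, the minimum fold enrichment, the overlap, the member rule and the merging of peaks. No peak sequence was searched, as no genome was used here. Some genes are counted in the totals but not reported here by name or drawn.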

Additional observations from a re-analysis of the deposited data

How the results depend on the processing

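Across 18 values, 63 alternatives were computed, 16 of them chosen after seeing the data. Counts stayed within 1.5 times and shares and medians within the 95% interval of the value as deposited in all 63. Members with a peak ranged from 39 to 45 in sham and from 33 to 38 in CCI, the highest with the 9 further ribosomal protein genes added. The 3′ UTR share ranged from 80.9% to 84.4% in sham and from 82.1% to 84.2% in CCI with peaks merged, each gene and region counted once or a fold enrichment of at least 2 required, and the median fold enrichment from 7.72 to 12.2 and from 8.86 to 10.2. The intervals are wide, with 49 and 40 peaks, so staying inside them is a weak check. Centring on all pairs gave a median log2 ratio of 0.01, and 7 member pairs still passed an absolute log2 ratio of 1 in each setting tried. Dropping peaks that shared bases with a peak of another gene removed Rpl36al from the CCI list. No paired analysis was possible because a single IP and a single input library stood for each condition, and for the same reason no library could be left out. Unknown depth limits every missing peak and every p-value.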
